A study of Mus musculus with 12 samples.

Results

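The 10 genes described here are cytokines and receptors of the interleukin 1 (IL1) family and a receptor pair of the interleukin 17 (IL17) family, read by gene name from a raw count table of 57278 mouse genes. They are the agonists Il1a and Il1b, the antagonist Il1rn, the receptor subunits Il1r1 and Il1rap, the cytokines Il18 and Il33, the IL33 receptor Il1rl1, and the IL17 receptor subunits Il17ra and Il17rc. RNA was sequenced in 12 libraries from 3 lines of pancreatic tumor cells, DDKC_9750, DDKC_9790 and DDKC_9804, each left untreated or treated with recombinant DKK3 protein (rDKK3), with 2 libraries for each line and condition. The lines came from pancreatic tumors of Dkk3-/- mice that also carried Ptf1aCre/+, a Cre that Ptf1a drives in the pancreas, so all libraries, untreated ones included, come from cells with the Dkk3 knockout. The comparison asks how tumor cells without DKK3 of their own respond when the protein is given back, and its controls are untreated cells of the same line. The dose of rDKK3 and the age of the mice are not in the labels of these samples. How many tumors the lines stand for is not in the labels.

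IL1A and IL1B signal through IL1R1, which needs the accessory chain IL1RAP to recruit the adaptor MYD88 and to switch on NF-kB and MAP kinases. IL1RN occupies IL1R1 without recruiting IL1RAP and so blocks the receptor. IL33 is a nuclear protein of epithelial and stromal cells that acts as an alarm signal when it is released, through IL1RL1 together with the same IL1RAP. IL18 is processed by inflammatory caspases and uses a receptor pair of its own. IL17RA and IL17RC together form the receptor for IL17A and IL17F, which raises many of the genes that IL1 raises. In pancreatic cancer, IL1 made by tumor cells and macrophages is known to turn fibroblasts into an inflammatory, cytokine-secreting state.

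Read counts over exons were summed by strand, so a gene's reads can be told from those of a partner on the other strand. Values are in CPM, counts scaled to a common library total after TMM normalization, and levels of different genes are compared per kilobase of exon. Totals ran from 7520741 to 24541083 counts in the untreated and from 3822987 to 11567095 in the rDKK3 libraries. At these depths 3 counts, the floor used here, equal 0.127 CPM where a library was deepest and 0.754 CPM where it was shallowest, a limit that covers counting error only. Dkk3 had 1 count in 1 library and 0 in the others. Of the epithelial markers 8 of 9 exceeded 1 CPM in some sample, and so did 6 of 6 genes of a mesenchymal state. Epcam did so only in DDKC_9750, and Muc1 stood at 0.541 and 0.820 CPM in untreated and treated DDKC_9804. Of 9 macrophage and myeloid markers 3 did so (Cd14, Cd68 and Csf1r), while Adgre1, Lyz2 and Tyrobp were at 0 everywhere and Ptprc and Itgam had at most 2 counts in a library. The summed level of that list was 151 to 393 CPM in untreated and 144 to 1009 CPM in rDKK3 samples, most of it Cd14. Of 6 fibroblast markers 2 (Col1a1 and Pdgfra) exceeded 1 CPM in some sample, with a summed level of 2.48 to 12.98 CPM in untreated and 5.25 to 11.6 CPM in rDKK3 samples. Of 4 endothelial markers 1 exceeded 1 CPM (Kdr, up to 17.3 CPM), and of 6 acinar markers 1 (Cela1, up to 11.7 CPM). The part of these lists in the results below was not tested.

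Whether paired libraries are separate cultures or repeats of 1 RNA is not in the labels. Each pair has a lower-numbered and a higher-numbered library, and with a gene-wise shift between these fitted, the pairs differed by no more than counting noise (mean deviance 0.764 per degree of freedom, 6.39 without the shift, over 12979 genes averaging 20 counts or more). They were therefore summed, and the test over the 3 lines has 3 treated and 3 untreated samples, with the line in the model. Tests within a line, between untreated lines and of line dependence use the 12 libraries, so their p-values measure only the spread between libraries, which may be technical. P-values come from the quasi-likelihood test of edgeR and were adjusted by Benjamini-Hochberg over 15165 genes, and a gene is called at an adjusted p under 0.05.

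Of the 10 members 8 passed the filter on low counts, all but Il1b and Il1rl1. Promoter sequence is shown for 4 of them, since Il1r1 and Il1rn fell in 3 and in 2 lines and Il1a and Il1rap had the largest positive fold changes. Each run covers 250 bases before the start and the first 50 bases of the gene's canonical transcript in GENCODE M39 on GRCm39, on the gene's own strand. Capitals mark a match to the AP-1 motif TGANTCA or to the NF-kB consensus, searched on both strands, and the motifs do not overlap in these windows.
Il1a: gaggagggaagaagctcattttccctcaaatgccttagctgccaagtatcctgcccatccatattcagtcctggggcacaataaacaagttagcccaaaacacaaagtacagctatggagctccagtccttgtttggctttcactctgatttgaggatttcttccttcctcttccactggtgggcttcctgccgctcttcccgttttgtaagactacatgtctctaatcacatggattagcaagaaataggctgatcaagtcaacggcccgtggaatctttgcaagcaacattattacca
Il1rap: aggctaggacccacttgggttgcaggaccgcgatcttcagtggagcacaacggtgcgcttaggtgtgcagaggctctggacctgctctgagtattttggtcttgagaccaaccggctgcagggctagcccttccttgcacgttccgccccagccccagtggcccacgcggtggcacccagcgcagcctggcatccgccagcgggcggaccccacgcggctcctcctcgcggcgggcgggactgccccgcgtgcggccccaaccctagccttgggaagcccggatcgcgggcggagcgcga
Il1rn: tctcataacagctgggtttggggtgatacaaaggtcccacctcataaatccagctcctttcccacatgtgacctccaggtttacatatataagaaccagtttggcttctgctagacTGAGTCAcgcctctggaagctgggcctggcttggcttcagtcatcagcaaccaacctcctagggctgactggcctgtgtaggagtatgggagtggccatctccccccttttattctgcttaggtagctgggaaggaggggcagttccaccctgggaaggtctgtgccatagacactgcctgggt
Il1r1: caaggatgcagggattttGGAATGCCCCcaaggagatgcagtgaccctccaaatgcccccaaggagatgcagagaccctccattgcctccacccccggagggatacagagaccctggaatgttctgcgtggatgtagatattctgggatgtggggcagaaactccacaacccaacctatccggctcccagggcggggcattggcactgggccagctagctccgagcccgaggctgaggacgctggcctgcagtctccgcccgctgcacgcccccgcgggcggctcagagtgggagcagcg
These are chr2:129152049-129152348 on the minus strand for Il1a, and on the plus strand chr16:26400100-26400399 for Il1rap, chr2:24226615-24226914 for Il1rn and chr1:40305496-40305795 for Il1r1. The canonical start of Il1r1 lies inside the gene, whose first annotated base in the count table is 40264240, so an upstream start exists that this window does not show. Canonical starts of Il18 and Il1rl1 also lie inside their genes. The windows of Il1a, Il1rap and Il17ra lie wholly upstream of the gene as annotated in the count table. The AP-1 motif was found in the Il1rn window 134 bases before the start, and in no other window of the 10 members, against 7.14% of 21770 promoters of the same length. The NF-kB consensus was found in the Il1r1 window, on the opposite strand and 232 bases before the start, and in no other member, against 8.97% of those promoters. A match describes letters and not a bound site.

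Over the 3 lines together none of the 8 tested members was called, and with Il1a set aside 1 of the other 7 (Il1r1) had an unadjusted p under 0.05. The same test called 1 of 15165 genes, 0.00659% of them, with 1294 at an unadjusted p under 0.05, so a count of 0 among the members is near the background. Called changes with rDKK3 differed between the lines, as did 49.3% of all genes by the interaction of line and treatment. With the library shift fitted, paired libraries differed by no more than counting noise, so line dependence cannot be told from variation between cultures. In DDKC_9750 cells Il33, Il17rc and Il18 rose. In DDKC_9804 cells Il1rap and Il17ra rose while Il1rn, Il1r1 and Il17rc fell. In DDKC_9790 cells Il1rn, Il1r1 and Il17rc fell and none rose. Il1r1 was the only member called in the same direction, lower, in all 3 lines. Il1a had more counts with rDKK3 in DDKC_9804, and its calls are set apart because it passed the filter on low counts through rDKK3 libraries alone (3 of them, and 0 untreated libraries, reached the filter's level of 1.08 CPM).

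**Figure D1:**
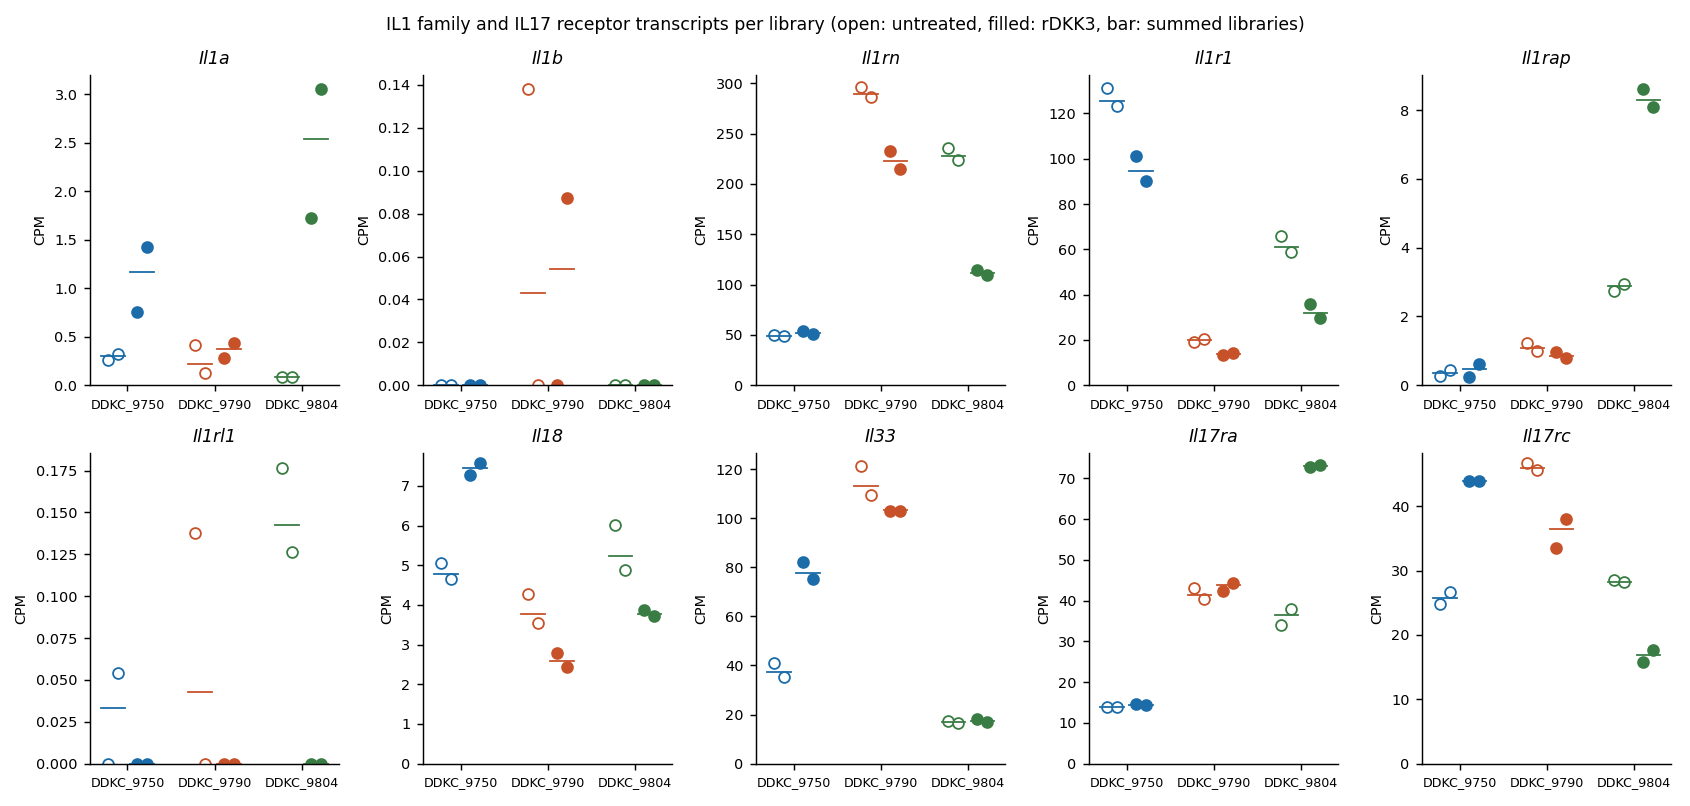
Normalised level (CPM, linear axis from 0, scaled separately for each gene) of the 10 members in each of the 12 libraries, by line, with open points for untreated and filled points for rDKK3 libraries and a bar for the summed libraries. Il1r1 lies lower with rDKK3 in every line, Il33 higher in DDKC_9750, and Il1a, Il1rap and Il17ra higher in DDKC_9804.

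Il1a (ENSMUSG00000027399.2, GRCm39 chromosome 2, 129141530 to 129151892, minus strand) encodes the membrane-bound and nuclear agonist IL1A. It was read from few counts. The untreated libraries of DDKC_9750 held 3 and 6 counts and the rDKK3 libraries 3 and 9, or 0.262 and 0.325 CPM against 0.754 and 1.42 CPM. In DDKC_9790 they held 3 and 2 against 2 and 5 counts, and in DDKC_9804 1 and 2 against 8 and 23. The groups did not overlap in CPM in DDKC_9750 and DDKC_9804 and overlapped in DDKC_9790. The ratio of the summed libraries in DDKC_9804 was 29.7, with a 95% counting interval of 9.28 to 152, since the untreated sum is 3 counts, at the floor. That ratio was 3.89 (1.51 to 10.5) in DDKC_9750 and 1.76 (0.481 to 7.03) in DDKC_9790. Because Il1a could enter the tests only by being high in rDKK3 libraries, these ratios are a description and its p-values are not read as support. The intervals cover counting error only, and that of DDKC_9790 includes 1. Mean levels over the 3 lines were 0.200 ± 0.107 CPM untreated and 1.36 ± 1.10 CPM with rDKK3 (SD, n = 3).

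Il1b (ENSMUSG00000027398.14, chromosome 2, 129206490 to 129213059), the secreted agonist that macrophages make in quantity, had at most 1 count in any library. It had 1 count in 1 untreated and 1 rDKK3 library of DDKC_9790 and 0 in the other lines, which is under the floor of each library. No fold is given for it. Its processing enzyme Casp1 was measured at 0.232 and 3.20 CPM in untreated and rDKK3-treated DDKC_9750 cells, 0 in both conditions in DDKC_9790, and 4.22 and 5.74 CPM in DDKC_9804.

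Il1rn (ENSMUSG00000026981.16, chromosome 2, 24226865 to 24241506), the receptor antagonist, was the most abundant member per kilobase in DDKC_9790 and DDKC_9804. In DDKC_9750 Il1r1 stood above it untreated (18.7 against 15.7 CPM per kilobase) and Il17rc with rDKK3 (18.1 against 16.6). In DDKC_9804 its libraries fell from 236 and 224 CPM untreated to 115 and 110 CPM with rDKK3, 0.491 times the untreated level in the summed libraries. In DDKC_9790 they fell from 296 and 286 to 233 and 214 CPM, 0.770 times. In DDKC_9750, the line with the lowest level, they stood at 49.99 and 49.02 CPM untreated and 53.5 and 50.8 CPM with rDKK3. The rDKK3 libraries lay below both untreated ones in DDKC_9790 and DDKC_9804 and above them in DDKC_9750. The log2 fold change was -1.03 (SE 0.05, adjusted p = 2.98e-07) in DDKC_9804, -0.38 (SE 0.05, adjusted p = 0.000560) in DDKC_9790 and 0.07 (SE 0.06, adjusted p = 0.482) in DDKC_9750.

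Il1r1 (ENSMUSG00000026072.13, chromosome 1, 40264240 to 40356417), the signaling receptor chain, ordered the untreated lines oppositely to Il1rn. In DDKC_9750 it fell from 131 and 123 CPM untreated to 101 and 90.3 CPM with rDKK3. In DDKC_9804 it fell from 65.7 and 58.9 to 36.0 and 29.6 CPM, and in DDKC_9790 from 19.0 and 20.5 to 13.6 and 14.1 CPM. Treated and untreated libraries did not overlap in any line, and in such bulk RNA fewer cells with a transcript and less transcript per cell cannot be told apart. The summed levels with rDKK3 were 0.754, 0.525 and 0.696 times the untreated ones in DDKC_9750, DDKC_9804 and DDKC_9790. Il1r1 was called lower in each line, with log2 fold changes of -0.41 (SE 0.08, adjusted p = 0.00335), -0.94 (SE 0.10, adjusted p = 3.09e-05) and -0.52 (SE 0.12, adjusted p = 0.00892) in the same order. Of all genes tested 3.07% were called lower in all 3 lines and 1.53% higher in all 3. Over the 3 lines on summed libraries its log2 fold change was -0.62 (SE 0.15, unadjusted p = 0.00719, adjusted p = 0.578), lower in 3 of 3 lines. The call was lost without the deeper rDKK3 library in DDKC_9750 (adjusted p = 0.0524) and without the deeper untreated library in DDKC_9790 (adjusted p = 0.0720). An uncharacterised gene model, Gm38070, overlaps Il1r1 on the same strand and had 0 counts in every library, and reads in the bases they share cannot be given to either.

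Il1rap (ENSMUSG00000022514.15, chromosome 16, 26400454 to 26548867), the accessory chain that IL1 and IL33 receptors share, was scarce. Per kilobase it stood at 0.00129, 0.0237 and 0.0208 times the level of Il1r1 in untreated DDKC_9750, DDKC_9790 and DDKC_9804 cells. In DDKC_9804 it rose from 2.74 and 2.95 CPM to 8.61 and 8.10 CPM with rDKK3 (log2 fold change 1.54, SE 0.23, adjusted p = 0.000380), a 2.88-fold difference of the summed libraries. In DDKC_9790 it was 1.24 and 0.998 CPM untreated and 0.978 and 0.786 CPM with rDKK3, and in DDKC_9750 0.262 and 0.433 against 0.251 and 0.632 CPM, close to the floor. Neither was called (adjusted p = 0.667 and 0.748). With Il1rap higher and Il1r1 lower, the ratio of Il1rap to Il1r1 per kilobase in DDKC_9804 went from 0.0208 to 0.114. That ratio went from 0.00129 to 0.00226 in DDKC_9750 and from 0.0237 to 0.0274 in DDKC_9790, where Il1rap was not called.

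**Figure D2:**
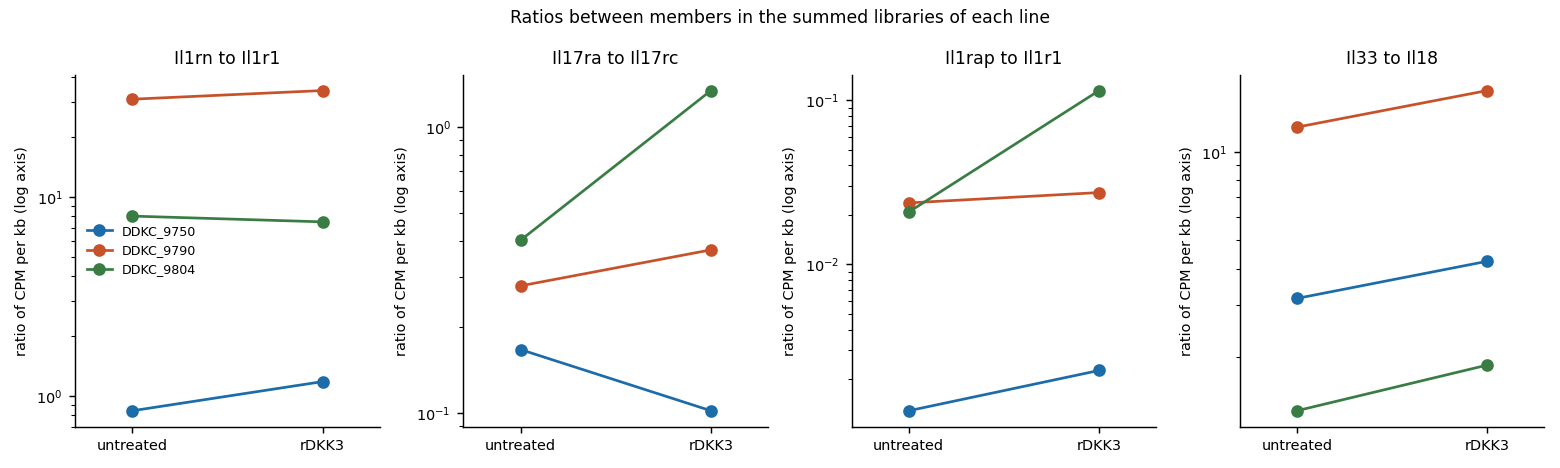
Ratio of CPM per kilobase between pairs of members in the summed libraries of each line (log axis), untreated on the left and rDKK3 on the right, with 1 line of points per cell line and no error bars because each point is 1 sample. The Il1rap to Il1r1 ratio climbs in every line, most in DDKC_9804, the only line where Il1rap was called. The Il17ra to Il17rc ratio climbs in DDKC_9790 and DDKC_9804 and falls in DDKC_9750, and the Il1rn to Il1r1 ratio keeps the order of the lines.

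The balance of antagonist to receptor separated the lines. Per kilobase, Il1rn stood at 0.841 times Il1r1 in untreated DDKC_9750 cells, 31.1 times in DDKC_9790 and 8.02 times in DDKC_9804. With rDKK3 these ratios were 1.18, 34.3 and 7.50. In DDKC_9750 the receptor fell and the antagonist was not called, and in the other lines both fell.

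Il33 (ENSMUSG00000024810.17, chromosome 19, 29902514 to 29938118) rose in DDKC_9750 from 40.9 and 35.4 CPM to 82.2 and 75.2 CPM with rDKK3, 2.09-fold in the summed libraries (log2 fold change 1.05, SE 0.08, adjusted p = 5.37e-06). DDKC_9790 held the most Il33, at 121 and 109 CPM untreated and 103 and 103 CPM with rDKK3. DDKC_9804 held the least, at 17.5 and 16.6 CPM untreated and 18.3 and 16.9 CPM with rDKK3. The log2 fold changes were -0.16 (SE 0.07, adjusted p = 0.149) and 0.04 (SE 0.11, adjusted p = 0.807) in these lines. With the shift between lower- and higher-numbered libraries in the fit, Il33 was called lower in DDKC_9790 (-0.15, SE 0.039, adjusted p = 0.00345). Its receptor Il1rl1 (ENSMUSG00000026069.16, chromosome 1, 40468730 to 40504575) had 0 to 3 counts in each untreated library and 0 in all 6 rDKK3 libraries, at or under the floor throughout, so no fold is given.

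Il18 (ENSMUSG00000039217.14, chromosome 9, 50466127 to 50493140) was low in all lines. It rose in DDKC_9750 from 5.07 and 4.66 CPM to 7.29 and 7.58 CPM (log2 fold change 0.62, SE 0.16, adjusted p = 0.0123), a call that was lost without the deeper untreated (adjusted p = 0.0749) or the deeper rDKK3 library (adjusted p = 0.152). It was 4.27 and 3.56 CPM untreated and 2.80 and 2.44 CPM with rDKK3 in DDKC_9790, and 6.01 and 4.89 against 3.88 and 3.72 CPM in DDKC_9804. In those lines treated libraries lay below untreated ones without passing the test (adjusted p = 0.0951 and 0.0795). Per kilobase, Il33 stood at 3.16 and 4.24 times Il18 in untreated and rDKK3-treated DDKC_9750 cells, 12.2 and 16.2 times in DDKC_9790, and 1.31 and 1.87 times in DDKC_9804. Of the IL18 receptor chains, Il18rap rose in DDKC_9750 from 15.3 to 36.1 CPM (adjusted p = 5.07e-06) and was not called in DDKC_9790 (3.78 and 3.56 CPM) or DDKC_9804 (32.2 and 33.0 CPM). Il18r1 rose in DDKC_9750 from 0.232 to 1.16 CPM (adjusted p = 0.00644) and fell in DDKC_9790 from 2.79 to 1.08 CPM (adjusted p = 0.0166) and in DDKC_9804 from 1.74 to 0.0820 CPM, under the floor (adjusted p = 0.000471).

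Il17ra (ENSMUSG00000002897.6, chromosome 6, 120440208 to 120464520), the chain common to IL17 receptor complexes, rose in DDKC_9804 from 33.9 and 37.9 CPM to 72.8 and 73.3 CPM with rDKK3, 2.00-fold in the summed libraries (log2 fold change 1.02, SE 0.06, adjusted p = 9.00e-07). It stood at 13.9 and 14.0 CPM untreated and 14.6 and 14.4 CPM with rDKK3 in DDKC_9750, and at 43.2 and 40.4 against 42.4 and 44.4 CPM in DDKC_9790. The counting intervals of the ratio were 0.860 to 1.26 and 0.965 to 1.17 in these lines. Neither difference was called (adjusted p = 0.822 and 0.542).

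Il17rc (ENSMUSG00000030281.17, chromosome 6, 113448388 to 113460101), the partner chain, moved in opposite directions between lines. It rose in DDKC_9750 from 24.8 and 26.6 CPM to 43.97 and 43.9 CPM (log2 fold change 0.77, SE 0.07, adjusted p = 2.32e-05). It fell in DDKC_9790 from 46.7 and 45.6 to 33.5 and 38.1 CPM (-0.36, SE 0.07, adjusted p = 0.00462), and in DDKC_9804 from 28.5 and 28.2 to 15.7 and 17.7 CPM (-0.75, SE 0.08, adjusted p = 5.25e-05). Il17rc was the only member called in both directions, as were 13.9% of all genes tested. Per kilobase, the ratio of Il17ra to Il17rc went from 0.167 to 0.102 in DDKC_9750, from 0.279 to 0.372 in DDKC_9790 and from 0.402 to 1.341 in DDKC_9804.

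**Figure D3:**
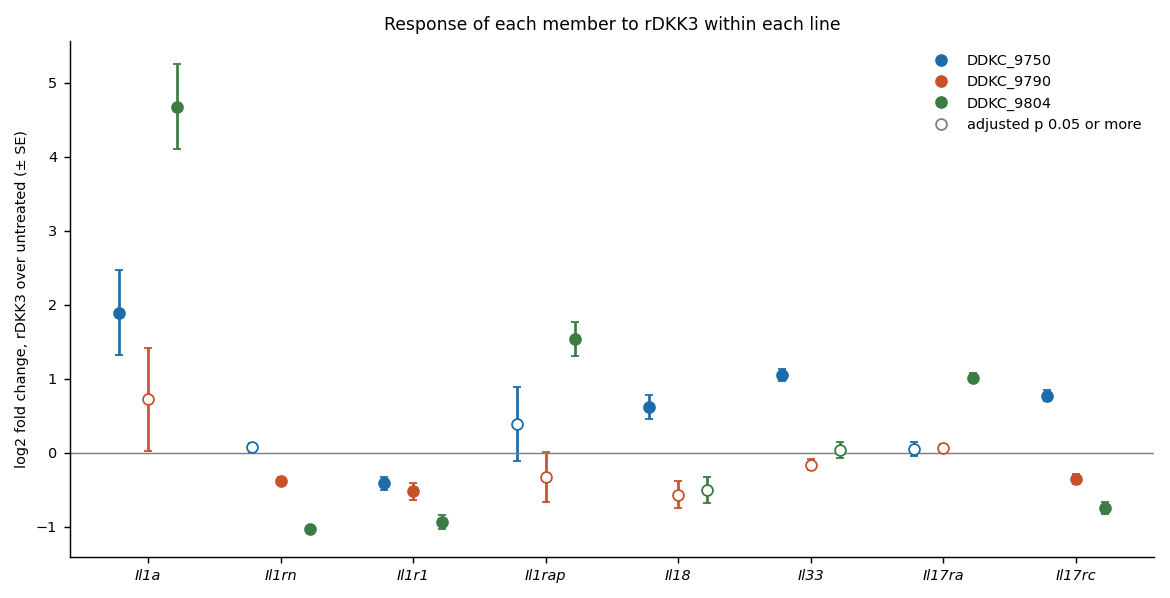
Log2 fold change of rDKK3 over untreated cells within each line, with its SE, for the 8 members that passed the filter on low counts; filled points were called at an adjusted p under 0.05 and open points were not. The 3 points of Il1r1 lie below 0, the points of Il17rc fall on both sides of it, and Il1a in DDKC_9804 lies highest, at 4.67 from 3 untreated counts.

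Leaving Il1a aside, 4 of 7 tested members were called within DDKC_9750 (3 higher, 1 lower) where 35.8% of all genes were (17.9% higher and 17.9% lower). Within DDKC_9790 3 of 7 were called, all lower, against 26.2% of all genes (12.3% higher and 13.9% lower). Within DDKC_9804 5 of 7 were called (2 higher, 3 lower) against 45.4% (20.1% higher and 25.3% lower). The interaction of line and treatment was called for all 7, against 49.3% of all genes, with adjusted p-values from 6.73e-06 (Il17rc) to 0.0173 (Il1r1). DESeq2's likelihood ratio test of the same term called 4 of them (Il1rn, Il33, Il17ra and Il17rc), against 25.8% of the genes it gave an adjusted p.

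With 12 libraries kept apart and the line as a block, 2 of these 7 members were called with rDKK3, against 18.1% of all genes (7.95% higher and 10.1% lower). Both Il1rn (log2 fold change -0.46, SE 0.14, adjusted p = 0.0456) and Il1r1 (-0.62, SE 0.09, adjusted p = 0.00161) were lower. On summed libraries they had log2 fold changes of -0.45 and -0.62 and adjusted p-values of 0.628 and 0.578. The fit to 12 libraries also called Il1a (2.58, SE 0.57), which the filter admitted through rDKK3 libraries alone. For the other 5 members, none of them called, the log2 fold changes on summed libraries were 0.67 (SE 0.47) for Il1rap, 0.39 (SE 0.22) for Il17ra, 0.33 (SE 0.26) for Il33, -0.11 (SE 0.32) for Il18 and -0.10 (SE 0.30) for Il17rc.

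Untreated lines differed in 7 of the 8 members, all but Il1a (adjusted p = 0.139), where 80.5% of all genes differed. Il1rn was lowest in DDKC_9750, and higher in DDKC_9790 by 2.56 and in DDKC_9804 by 2.22 on the log2 scale. Il1r1 was highest in DDKC_9750, followed by DDKC_9804 and DDKC_9790 (-1.03 and -2.67 against DDKC_9750). Il33 was highest in DDKC_9790, followed by DDKC_9750 and DDKC_9804. Il17ra was lowest in DDKC_9750, and its neighbours DDKC_9804 and DDKC_9790 differed by -0.20 (SE 0.06, adjusted p = 0.0139). Il1rap was lowest in DDKC_9750 and highest in DDKC_9804, with each neighbouring pair called. For Il17rc the neighbours DDKC_9750 and DDKC_9804 were not called (0.13, SE 0.07, adjusted p = 0.122), with DDKC_9790 above both. Il18 differed at an adjusted p of 0.0426 over the lines, through DDKC_9804 against DDKC_9790 (0.48, SE 0.15, adjusted p = 0.0179), and was not called with RLE normalization (adjusted p = 0.0762), with no filter on low counts (adjusted p = 0.0987), with DESeq2 (adjusted p = 0.642) or with most single libraries left out (adjusted p up to 0.665, without the deeper untreated library of DDKC_9790). Between pairs of untreated lines, 6 of 8 members were called for DDKC_9790 against DDKC_9750, 5 for DDKC_9804 against DDKC_9750 and 7 for DDKC_9804 against DDKC_9790, where 67.5%, 58.5% and 65.7% of all genes were.

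The other genes of these pathways were taken from lists chosen with earlier results of these data known, so their counts are a description. On the 12 libraries those counts stand beside 7.95% of all genes higher and 10.1% lower. Of 10 IL1 family cytokines, members included, 5 were tested. Of these, 3 passed the filter on low counts through untreated libraries alone, with 0 higher and 1 lower (Il1rn). Il36a, an epithelial agonist of the family, was listed at 0 in untreated and 3.49 CPM in rDKK3-treated DDKC_9750 cells, and like Il1a passed the filter through treated libraries alone, so its value is a description. It was at 0 in both conditions in DDKC_9790, and at 0.0285 and 0 CPM in DDKC_9804. Of 9 receptors and decoys 6 were tested, with 0 higher and 2 lower (Il1r1 and Sigirr). Sigirr, an inhibitory receptor of the family, fell in each line, from 77.5 to 54.4 CPM in DDKC_9750, from 64.6 to 42.9 CPM in DDKC_9790 and from 132 to 106 CPM in DDKC_9804 (log2 fold change -0.47, SE 0.06, adjusted p = 0.000507 on 12 libraries, and adjusted p = 0.578 on summed libraries). The decoy receptor Il1r2 reached at most 0.0664 CPM.

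Of 17 adaptors and kinases downstream of the receptors 16 were tested, with 2 higher (Peli1 and Ecsit) and 1 lower (Tab1) on the 12 libraries. On these libraries 7.95% of all genes were higher and 10.1% lower, so the 12-library counts of each list in this paragraph are near the background. Within lines 6 were higher and 2 lower in DDKC_9750, 2 higher and 0 lower in DDKC_9790, and 5 higher and 4 lower in DDKC_9804, beside the shares of all genes given above for each line. The genes named within lines here were chosen after their values were seen. In DDKC_9750 the kinase Irak2 rose from 42.7 to 84.2 CPM, Irak3, a brake on the pathway, from 6.70 to 23.9 CPM, and Peli3 from 2.06 to 15.3 CPM. The adaptor Myd88 rose there from 29.7 to 40.6 CPM (adjusted p = 0.00126) and fell in DDKC_9804 from 23.7 to 15.8 CPM (adjusted p = 0.000340). Peli1, a ubiquitin ligase of the pathway, had a log2 fold change of 0.42 (SE 0.12, adjusted p = 0.0284), and Ecsit one of 0.37 (SE 0.08, adjusted p = 0.00865). Of 18 genes of cytokine processing and release 14 were tested and 13 passed the filter through untreated libraries alone, with 1 higher (Pycard) and 2 lower (S100a13 and Capn2). Casp4, an inflammatory caspase that passed the filter through rDKK3 libraries alone, was at 0.0332 and 2.81 CPM in untreated and treated DDKC_9750, 0 in DDKC_9790, and 0.541 and 1.89 CPM in DDKC_9804. Pycard, the inflammasome adaptor, was at 1.26 and 5.23 CPM in DDKC_9750, 0.215 and 0.216 CPM in DDKC_9790, and 0.370 and 1.07 CPM in DDKC_9804. S100a13, which takes part in the release of IL1A, fell from 20.7 to 11.5, from 84.8 to 65.8 and from 47.2 to 13.9 CPM (log2 fold change -0.94, SE 0.19, adjusted p = 0.00710 on 12 libraries). None of 6 IL17 cytokines passed the filter on low counts. Of 10 IL17 receptors and adaptors 9 were tested, with 1 higher (Traf3, 0.35, SE 0.06, adjusted p = 0.00414) and 1 lower (Traf4, -0.24, SE 0.06, adjusted p = 0.0189). Within lines, Il17ra and Il17rc included, 5 were higher and 2 lower in DDKC_9750, 1 higher and 2 lower in DDKC_9790, and 1 higher and 3 lower in DDKC_9804. Traf3ip2, the adaptor that binds the IL17 receptor, rose in DDKC_9750 from 39.4 to 54.2 CPM (adjusted p = 0.000774) and fell in DDKC_9804 from 24.4 to 17.2 CPM (adjusted p = 0.000762). On summed libraries none of these lists held a called gene.

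Most tested genes of a list that IL1 and IL17 are known to raise went up with rDKK3 in DDKC_9750 and DDKC_9804. Which signal raised them was not tested. The list was chosen with earlier results of these data known, so its counts are a description. Of 29 listed 24 were tested, and 21 passed the filter through untreated libraries alone, all but Cxcl2, Ccl7 and Saa3. Of these 21, 18 rose and 2 fell within DDKC_9750 (17.9% and 17.9% of all genes), 6 rose and 0 fell within DDKC_9790 (12.3% and 13.9%), and 17 rose and 2 fell within DDKC_9804 (20.1% and 25.3%). Their median log2 fold changes were 2.38, 0.19 and 1.48, beside -0.02, -0.01 and -0.04 over all genes. On the 12 libraries 15 of 21 were higher and 0 lower (7.95% and 10.1% of all genes), and on summed libraries 1 was called, Lcn2, which is also the only gene called of all 15165 (log2 fold change 6.29, SE 0.24, adjusted p = 0.0132). Lcn2, an iron-binding protein that IL17 and IL1 induce together, went from 60.3 to 4459 CPM in DDKC_9750 and from 0.0570 CPM, under the floor, to 7.79 CPM in DDKC_9804, and was under the floor in both conditions in DDKC_9790. The monocyte marker Cd14 moved with this list in DDKC_9750, from 383 to 998 CPM, and not in DDKC_9804, where it went from 232 to 127 CPM. Cd14 was at 122 and 132 CPM in DDKC_9790. The myeloid marker Cd68 went from 2.02 to 3.005 CPM in DDKC_9750, from 23.2 to 38.1 in DDKC_9790 and from 2.65 to 6.72 in DDKC_9804. In the same order Csf1r went from 7.501 to 7.27, from 5.797 to 7.94 and from 7.66 to 10.2 CPM. In DDKC_9804 both were thus higher with rDKK3, where Cd14 was lower.

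The 6 genes that rose in DDKC_9790 were Cxcl5, Ccl20, Lif, Nfkbiz, Tnfaip3 and Zc3h12a, and all of them but Lif were called higher in the other lines too. Ccl20, a chemokine that draws CCR6-bearing lymphocytes, went from 3.39 to 37.4 CPM in DDKC_9750, from 0.215 to 0.918 CPM in DDKC_9790 and from 0.199 to 2.87 CPM in DDKC_9804. These genes and the values that follow were chosen after they were seen. In DDKC_9750 the neutrophil chemokine gene Cxcl5 went from 382 to 5690.1 CPM, Cxcl1 from 52.1 to 409 CPM and the complement gene C3 from 234 to 6472 CPM. In DDKC_9804 Ptgs2, the inducible prostaglandin synthase, went from 36.5 to 204 CPM and Lif, a cytokine of the IL6 family, from 25.4 to 129 CPM, while in DDKC_9750 Ptgs2 fell from 26.1 to 15.2 CPM (adjusted p = 0.00185) and Lif stood at 49.5 and 52.5 CPM. In DDKC_9790 Cxcl5 rose from 6.44 to 12.04 CPM (adjusted p = 0.000134) and Lif from 29.8 to 37.3 CPM (adjusted p = 0.0118), while Cxcl1 was at 1.46 and 1.67 CPM and Ptgs2 at 16.1 and 15.7 CPM. No relation between the members and these genes was tested.

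**Figure D4:**
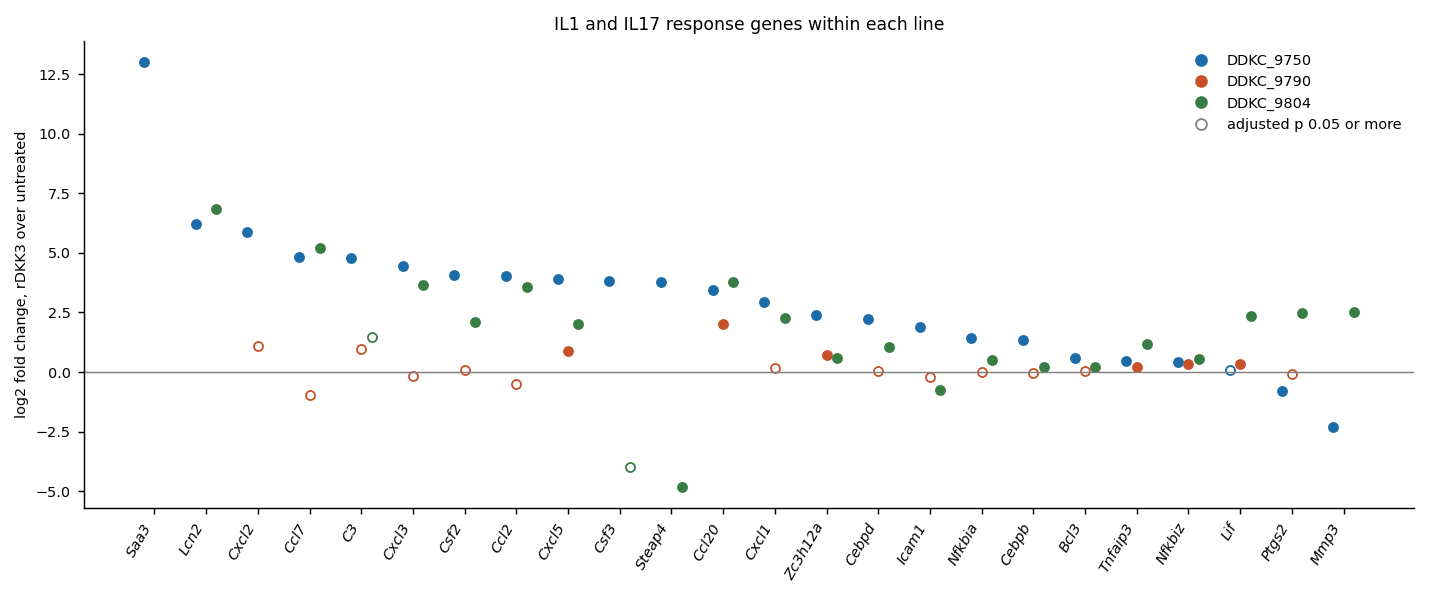
Log2 fold change of rDKK3 over untreated cells within each line for the 24 tested genes of the IL1 and IL17 response list, ordered by DDKC_9750; filled points were called, open points were not, and points are left out where both conditions are at or under 3 counts. Points of DDKC_9750 and DDKC_9804 lie mostly above 0. In DDKC_9790 the 6 filled points lie above 0, from 0.20 (Tnfaip3) to 2.01 (Ccl20). Cxcl2, Ccl7 and Saa3 passed the filter on low counts through rDKK3 libraries alone, so their points are a description only. Fitted values for genes with few untreated counts, such as Saa3, depend on the prior count.

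Among members, levels over the 6 summed samples (log2 CPM) went most alike for Il33 and Il17rc (Pearson r = 0.853), Il1r1 and Il18 (r = 0.843) and Il1rap and Il17ra (r = 0.842), and least alike for Il1rn and Il1r1 (r = -0.802). Treated and untreated samples of a line share its cells, so these 6 points are not independent. Over 11878 protein-coding genes, the patterns most like Il1rn were those of Arl3, Kazald1 and Tm4sf4 (r = 0.995, 0.990 and 0.988), and most like Il1r1 those of P3h2, Fiz1 and Ccar2 (r = 0.999, 0.998 and 0.998). The closest to Il33 were Efemp1, Eps8l3 and Ypel2, to Il17ra Lonrf1, Ccdc47 and Snai2, to Il17rc Galnt2, Lyrm1 and Kbtbd11, to Il18 Bicd1, Zfp455 and Ttc1, and to Il1rap Polr3d, 4930503L19Rik and Usp17la. With so few samples many genes come this close: 243 had an r over 0.95 with Il1r1 and 28 with Il17rc.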

How the data were processed

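RNA of 12 libraries was sequenced by the authors as read pairs on a NovaSeq, aligned to GRCm39 with STAR 2.7.9a and counted by strand on GENCODE M32 genes, and the deposited table holds raw counts per gene with no normalization. The submitters' processing notes also name Picard 2.19.2, DESeq2 1.38.0 and R 4.2.2, and the formula of the authors' model is not named in the sources used here. Count columns were assigned to libraries through their titles.

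Counts were analysed in R 4.3.3 with edgeR 4.0.16 (TMM, edgeR's filter over the 6 groups, quasi-likelihood test, Benjamini-Hochberg adjustment, threshold 0.05), on libraries summed by line and condition with the line as a block, and on all 12 libraries for line-specific contrasts. SEs follow from each log2 fold change and its F statistic. Alternatives used DESeq2 1.42.0, other scalings, filters and thinning, and left out lines or libraries. Those within lines without a library, and total-count scaling, were added after seeing the data. A simulation, without the shift between lower- and higher-numbered libraries, had a pass mark only for the summed fit. It does not vouch for the other tests. Same-line samples deviated together from the means of their conditions (r from 0.805 to 0.874 for a line with itself, at most -0.266 with another), and the line is named in the labels. Ratios of counts carry exact 95% intervals.

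The members, gene lists and tests were chosen with earlier results of these data known. All members are named, with, from each list, up to 4 genes of the largest change among those called on summed libraries or, where none was, on 12 libraries, and 3 genes of most similar pattern per member with a mean of at least 1 CPM. Other genes of the lists were named after their values were seen. Promoters were read from GRCm39 with GENCODE M39 starts, and M32 and M39 models differ for some genes. No protein sequences were used here. Part of the genotype that all lines share is not reported here.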

Additional observations from a re-analysis of the deposited data

Results flagged for a closer look

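The response to rDKK3 differed between the 3 lines for 7 tested members, Il1a set aside, by the interaction of line and treatment on 12 libraries (edgeR, adjusted over 15165 genes, of which 49.3% were called). The adjusted p-values were 6.73e-06 for Il17rc, 7.59e-06 for Il1rn, 2.43e-05 for Il17ra, 3.61e-05 for Il33, 0.00313 for Il18, 0.00908 for Il1rap and 0.0173 for Il1r1. The value of Il1a was 0.0145, but it passed the filter on low counts through rDKK3 libraries alone, so this supports nothing. DESeq2's likelihood ratio test of the same term called 4 of the 7 (Il1rn, Il33, Il17ra and Il17rc) and 25.8% of the genes it gave an adjusted p, with adjusted p-values of 0.155 for Il1r1, 0.266 for Il1rap and 0.221 for Il18. For Il17rc the lines moved in opposite directions, higher in both treated libraries of DDKC_9750 and lower in those of DDKC_9790 and DDKC_9804. For Il1r1 all lines moved down and differed in size. Leaving out a single library of DDKC_9804 ended the call for Il1a (adjusted p = 0.0673 without the deeper untreated and 0.0584 without the deeper rDKK3 library) and for Il1r1 (0.0512 without the shallower untreated and 0.115 without the deeper rDKK3 library). These p-values rest on the spread between libraries of the same line and condition, and whether those were separate cultures is not in the labels.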

How the results depend on the processing

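The number of genes called over the 3 lines depended on how libraries were treated. It was 1 on summed libraries and 2744 on 12 libraries with the line as a replicate block, 3124 with the library series added, 0 with no replicate block, 95 with DESeq2 and 90 with no filter on low counts. The number of members called was 0, and 3 in both fits to 12 libraries (Il1a, Il1rn and Il1r1). Counts of members here include Il1a, which passed the filter on low counts through rDKK3 libraries alone. Leaving out a line or a library gave 0 to 2 genes and 0 members. The genes were 0 without DDKC_9750, without DDKC_9790 or without the deeper rDKK3 library of DDKC_9790, and 2 without DDKC_9804. For the line-dependent response DESeq2 called 3678 genes in place of 7474 and 4 members in place of 8, and leaving out a library gave 6378 to 7112 genes and 6 to 8 members. Within DDKC_9790 the library series as a covariate raised 3975 genes to 6066 and 3 members to 4 (Il33 added), and leaving out a library gave 2350 to 2803 genes and 2 or 3 members. Within DDKC_9750 leaving out a library gave 2 to 5 members and 3745 to 4526 genes, the 2 being Il33 and Il17rc without the deeper rDKK3 library. The cause of these differences was not tested.

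Signs turned for members that were not called. Over the 3 lines, leaving out a line or a library gave log2 fold changes of -0.042 to 0.57 for Il33 (negative without DDKC_9750), -0.50 to 0.10 for Il18 and -0.52 to 0.21 for Il17rc (each positive without DDKC_9790 or DDKC_9804), and -0.040 to 1.15 for Il1rap (negative without DDKC_9804). Within lines, leaving out a library gave -0.52 to 0.85 for Il1rap in DDKC_9750, -0.16 to 1.499 for Il1a and -0.0061 to 0.10 for Il17ra in DDKC_9790, and -0.0095 to 0.11 for Il33 in DDKC_9804. Il1rn, Il1r1 and Il17ra kept their direction over the 3 lines in all 23 alternatives, with sizes of -0.69 to -0.15, -0.72 to -0.46 and 0.074 to 0.55. Without DDKC_9804 Il1rn went from -0.45 to -0.15 and Il17ra from 0.39 to 0.074. Within DDKC_9804 the 5 members called, Il1a set aside, kept their direction and call in all 7 alternatives run there. Other scalings moved the median log2 fold change of all genes by under 0.1 in each line, and a prior count of 0.5 in place of 2 kept the sign of every member's mean difference. Depth limits Il1a, Il1b, Il1rap and Il1rl1, which had few counts.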
